A study of Homo sapiens with 4 samples.

Results

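The comparison described here sets KGN cells that received both siRNA against YAP and TAZ and 8Br-cAMP against KGN cells that received neither, and follows how that combined difference divides into what each treatment gave alone. Its members are all probe sets of the array that name exactly 1 gene, 17709 of 24351 probe sets, which gave 17687 genes after the 20 genes with several probe sets were averaged. KGN is a human cell line derived from a granulosa cell tumour. The cells were transfected with control siRNA at 10 nM (siNC) or with siRNAs to YAP and TAZ at 5 nM each (siYT), and 48 h later the medium was changed to one with 0.5 mM 8Br-cAMP, a brominated form of cyclic AMP that enters cells, or to one without it, for 24 h. The 4 groups are siNC, siNC+8Br-cAMP, siYT and siYT+8Br-cAMP, and the labels name no allele or agent besides these. They do not give the genotype of the tumour-derived line, which all 4 groups share. All 4 were transfected, so the untreated state here is a transfected one. Each group is 1 Clariom S Human array of total RNA, and all come from a single tumour-derived line, so no difference has a replicate check and no p-value is given.

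Granulosa cells surround the oocyte. Follicle-stimulating hormone and luteinizing hormone act on them largely through cyclic AMP, which activates protein kinase A and the transcription factor CREB and raises the enzymes of estrogen and progesterone synthesis as the cells differentiate and luteinize. YAP and TAZ are coactivators held back by the Hippo kinases. In the nucleus they bind TEAD transcription factors and drive genes of growth, matrix contact and cell division.

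Short motifs recur in the promoters of gene groups followed below. As examples chosen by hand, 5 promoters that hold such motifs are shown: 2 genes that were higher, 2 YAP/TAZ targets and 1 mitotic cyclin that were lower. Each is the 250 bases before the gene's start in RefSeq on GRCh38.p14, written 5′ to 3′ on the gene's strand. The capitals mark TGACGTCA, the full site of CREB, in PDE7B (chr6:135851451-135851700, plus strand), which encodes a phosphodiesterase that breaks down cyclic AMP. They mark TGACG or its reverse complement CGTCA, the core of that site, in NR4A3 (chr9:99821635-99821884, plus strand), an orphan nuclear receptor induced by cyclic AMP. In CCN2 (chr6:131951373-131951622, minus strand) and ANKRD1 (chr10:90921088-90921337, minus strand), which are textbook YAP/TAZ targets, they mark GGAATG, the TEAD motif. In CCNB2 (chr15:59104896-59105145, plus strand), cyclin B2, they mark CCAAT, bound by NF-Y, and TTTGAA, an element of genes that are silenced when cells stop dividing.

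PDE7B: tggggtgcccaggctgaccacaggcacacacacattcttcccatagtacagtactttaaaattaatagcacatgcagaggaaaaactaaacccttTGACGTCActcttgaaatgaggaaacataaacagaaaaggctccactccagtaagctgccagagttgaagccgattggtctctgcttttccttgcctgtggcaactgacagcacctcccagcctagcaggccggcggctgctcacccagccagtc

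NR4A3: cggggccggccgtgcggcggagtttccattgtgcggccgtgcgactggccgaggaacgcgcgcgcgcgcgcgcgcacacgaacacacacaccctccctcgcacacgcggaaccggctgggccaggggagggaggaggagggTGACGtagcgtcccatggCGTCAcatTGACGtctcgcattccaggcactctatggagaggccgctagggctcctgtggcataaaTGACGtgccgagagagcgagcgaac

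CCN2: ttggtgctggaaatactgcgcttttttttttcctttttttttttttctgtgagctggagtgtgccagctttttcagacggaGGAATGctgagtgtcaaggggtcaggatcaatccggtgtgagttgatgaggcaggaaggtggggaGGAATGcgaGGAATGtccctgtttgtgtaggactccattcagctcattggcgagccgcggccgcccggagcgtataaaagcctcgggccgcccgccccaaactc

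ANKRD1: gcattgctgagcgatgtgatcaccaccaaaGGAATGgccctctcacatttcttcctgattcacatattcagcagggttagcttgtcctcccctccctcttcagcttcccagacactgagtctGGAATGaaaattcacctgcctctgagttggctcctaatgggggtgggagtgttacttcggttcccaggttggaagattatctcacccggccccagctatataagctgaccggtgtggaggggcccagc

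CCNB2: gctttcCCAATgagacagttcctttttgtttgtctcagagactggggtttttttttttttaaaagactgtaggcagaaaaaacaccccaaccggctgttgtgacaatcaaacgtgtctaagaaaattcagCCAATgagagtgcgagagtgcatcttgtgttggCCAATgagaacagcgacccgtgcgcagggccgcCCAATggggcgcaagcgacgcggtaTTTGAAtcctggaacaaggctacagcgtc

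PDE7B held 1 full CREB site and NR4A3 held 4 core sites, while CCN2 held 3 TEAD motifs and ANKRD1 held 2. CCNB2 held 4 CCAAT motifs and 1 TTTGAA. The motifs do not separate the higher from the lower genes. NR4A3 also held the TEAD motif as its reverse complement CATTCC, left in small letters here. The promoter scanned for CYP19A1, the gene with the largest combined difference, held CCAAT but neither the CREB core nor the TEAD motif. For each gene only the first listed promoter was scanned, and whether KGN cells use it was not tested. RefSeq promoters, 250 bases before to 50 after the start, were matched by Entrez gene ID for 14250 of the 17687 genes. Counted on both strands, TGACGTCA was in 1.85% of the 35116 promoters of the whole table and GGAATG in 14.0%. The same counts gave 34.6% for CCAAT and 15.2% for TTTGAA. A match is a run of letters and not a measured binding site.

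Levels are the deposited log2 signals, and the 4 values of a gene are always given in the order siNC, siNC+8Br-cAMP, siYT and siYT+8Br-cAMP. The combined difference is siYT+8Br-cAMP minus siNC, the siYT difference is siYT minus siNC, and the 8Br-cAMP difference is siNC+8Br-cAMP minus siNC. All 3 subtract the same siNC array, so an error of that array enters each of them. A gene was called by size when it differed by at least 1 log2 unit, which is 2-fold, and the higher of the arrays compared reached 6.22, the median of all gene values. Some deposited values exceed 16, the log2 limit of a 16-bit scanner, up to 19.36, so a rescaling that the sources used here do not give is possible and the folds given here may not equal ratios of signals. A fold that starts or ends near the background depends on the background. The array medians lay between 6.20 and 6.27. Of the 612 negative control probe sets, 10.5% were called in the combined comparison by the same rule, and their combined differences ran from -9.45 to 10.24. Only 80 of them passed the level filter, and 64 of these 80 were called, with a median size of 2.1 over the 80. Of the genes, 9458 passed the filter and 3354 were called, with a median size of 0.71 over the 9458. A single large difference at 1 array a group therefore has no known error. The 2197 positive control probe sets had a median combined difference of -0.41.

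The labels were checked on the genes the siRNAs target. YAP1, which encodes YAP, stood at 9.48, 9.46, 6.80 and 6.29, a combined difference of -3.19, or 9.12-fold lower. WWTR1, which encodes TAZ, stood at 7.58, 9.13, 5.45 and 5.35, a combined difference of -2.23. Both were lower on the siYT arrays than on the siNC arrays, with and without 8Br-cAMP. WWTR1 was 1.55 higher with 8Br-cAMP alone, so its lower level with both treatments was against the direction of 8Br-cAMP by itself.

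With both treatments 3354 of 17687 genes were called, 19.0%. Of these, 1741 genes (9.84%) were higher, with a median difference of 1.57 or 2.96-fold, and 1613 (9.12%) were lower, with a median of -1.65 or 3.14-fold. These shares count the 8229 genes that were under the level filter on both arrays and could not be called. They are therefore too low a measure for lists whose members mostly passed the filter. The same rule called 14.9% of genes for siYT alone and 8.06% for 8Br-cAMP alone. The median over all genes was 0.01 on the deposited scale. When each array was instead centred on its positive control probe sets, that median became 0.38, and 2725 genes were called higher and 1043 lower, so the higher share of calls was 72.3% in place of 51.9%. At a difference of at least 3, which is 8-fold, 187 genes were higher (1.06%) and 245 lower (1.39%). Just above the threshold, 365 genes differed by 1 to 1.1, and just under it, 440 genes differed by 0.9 to 1. Among the called genes, 386 of the higher and 430 of the lower had their lower value under 6.22, where sizes rest on a level near the background.

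The largest combined difference of all genes was that of CYP19A1, the aromatase that makes estrogens, at 5.04, 14.26, 14.26 and 17.56, a difference of 12.52. The lowest was ANKRD1, at 14.42, 13.08, 8.28 and 3.81, a difference of -10.61, followed by HMOX1 at -7.27 and RRM2 at -7.23. CYP19A1 and ANKRD1 had each differed in the same direction by at least 2-fold with either treatment alone.

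The called genes were divided by the size of the single differences. For 1208 genes (36.0%) siYT alone gave at least 2-fold in the direction of the combined difference and 8Br-cAMP did not. For 381 genes (11.4%) 8Br-cAMP alone did and siYT did not. Each treatment alone gave 2-fold for 698 genes (20.8%), and neither did for 1037 (30.9%). In the remaining 30 genes (0.9%) a single treatment had gone at least 2-fold the other way. These counts depend on how a single response is counted. With single differences called at 1.5-fold, each treatment moved 1570 genes, neither moved 278 and 73 had an opposed one. With order-averaged parts, 400 genes had each part at 2-fold and 13 had opposed parts. The higher and the lower genes divided in similar proportions, with 34.3% and 37.9% in the class where only siYT gave 2-fold and 31.2% and 30.6% in the class where neither did.

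The largest differences divided otherwise, in part by construction, since the size cut and the classes use the same values. At a difference of at least 3, a gene can be in the class where neither did only if it exceeds the sum of both single differences by more than 1. At a difference of at least 3, each treatment alone gave 2-fold in 116 of 187 higher genes (62.0%) and in 135 of 245 lower genes (55.1%). Only 8Br-cAMP gave 2-fold in 35 of the higher genes but in 10 of the lower, and only siYT did so in 25 of the higher and 97 of the lower (39.6%). Among these large differences, the median siYT difference was 2.01 and the median 8Br-cAMP difference 1.93 for the higher genes. For the lower genes the medians were -2.90 and -1.10. When the combined difference was divided between siRNA and 8Br-cAMP by averaging over both orders in which the treatments can be added, the siRNA part was the larger in 1122 of 1741 higher genes (64.4%) and in 1152 of 1613 lower genes (71.4%).

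**Figure D1:**
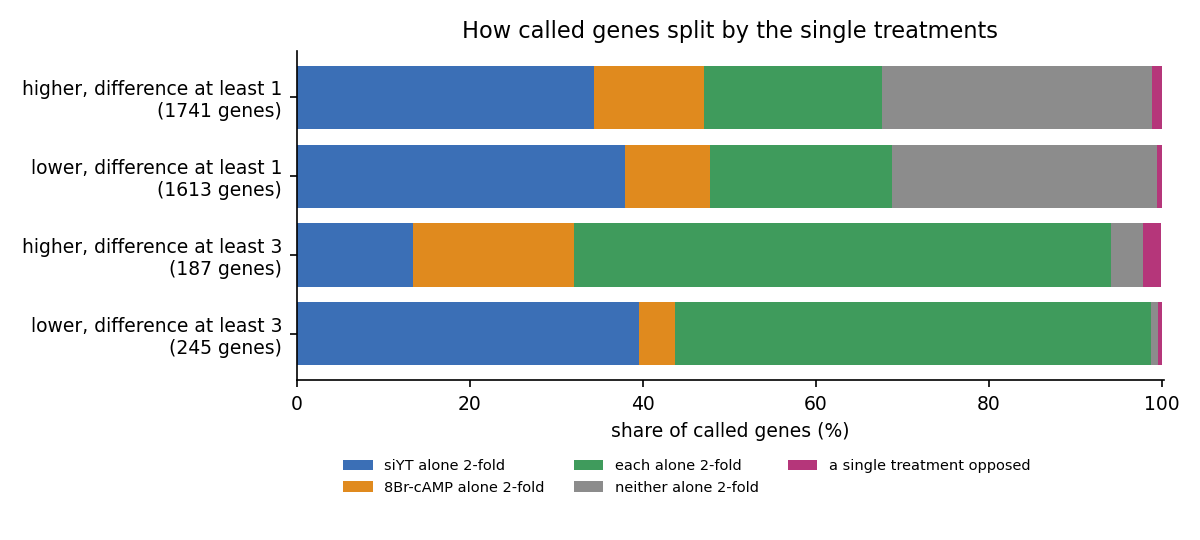
Share of the called genes (percent, horizontal axis) in each class of single-treatment response, for genes higher or lower with both treatments at a difference of at least 1 or at least 3 log2 units (rows, with the number of genes). At the larger size the genes that each treatment alone moved 2-fold (green) make up 62.0% of the higher and 55.1% of the lower genes, against 20.6% and 21.0% at the smaller size. The size cut and the classes use the same values, so part of this shift is built in.

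**Figure D2:**
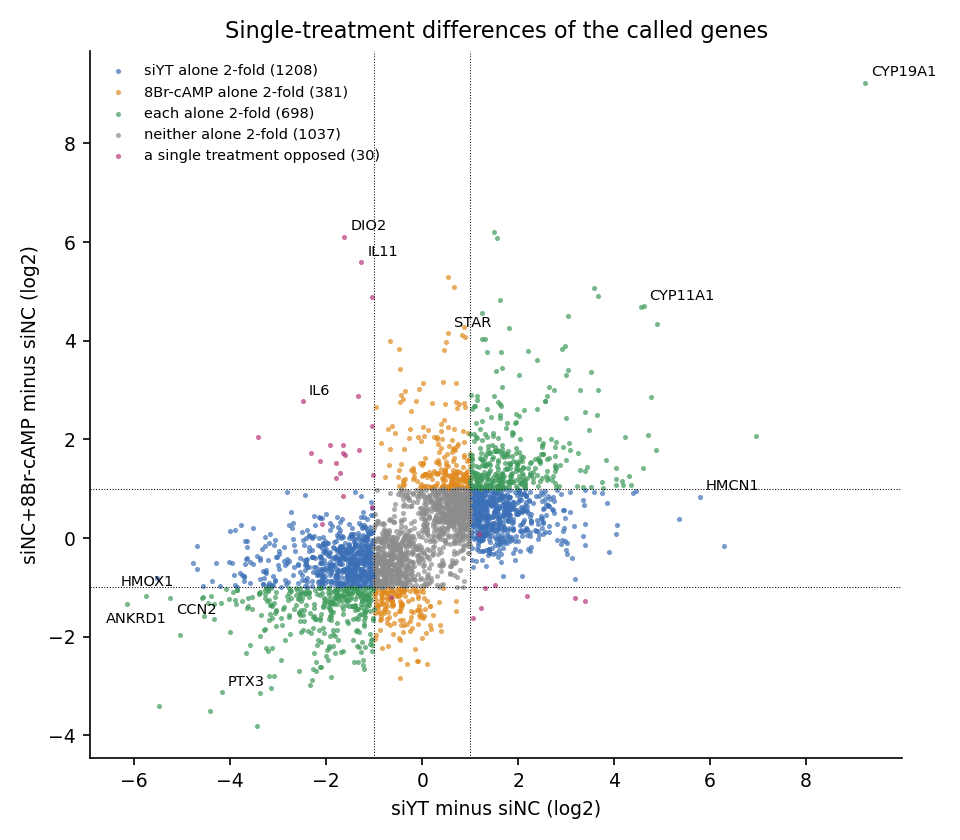
Single-treatment differences of the 3354 genes called with both treatments, siYT minus siNC (log2, horizontal) against siNC+8Br-cAMP minus siNC (log2, vertical), coloured by class. Both axes subtract the same siNC array, dotted lines mark 1 log2 unit, and CYP19A1 lies at 9.23 on both.

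On the log2 scale the combined difference lay within 1 of the sum of both single differences for 2671 called genes (79.6%). It exceeded that sum by at least 1 in 262 genes (7.8%), 131 in each direction, and fell short of it by at least 1 in 421 (12.6%), 245 higher and 176 lower. Genes that each treatment alone moved 2-fold fell short of the sum in 282 of 698 cases and exceeded it in 17. This class requires both single differences to be at least 1, and both subtract the same siNC array, so its choice favours a shortfall. Among the 1037 genes that neither treatment alone moved 2-fold, 151 exceeded the sum by at least 1 and 0 fell short by as much, which the definition of the class fixes. The median single differences of the higher ones were 0.60 for siYT and 0.54 for 8Br-cAMP.

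**Figure D3:**
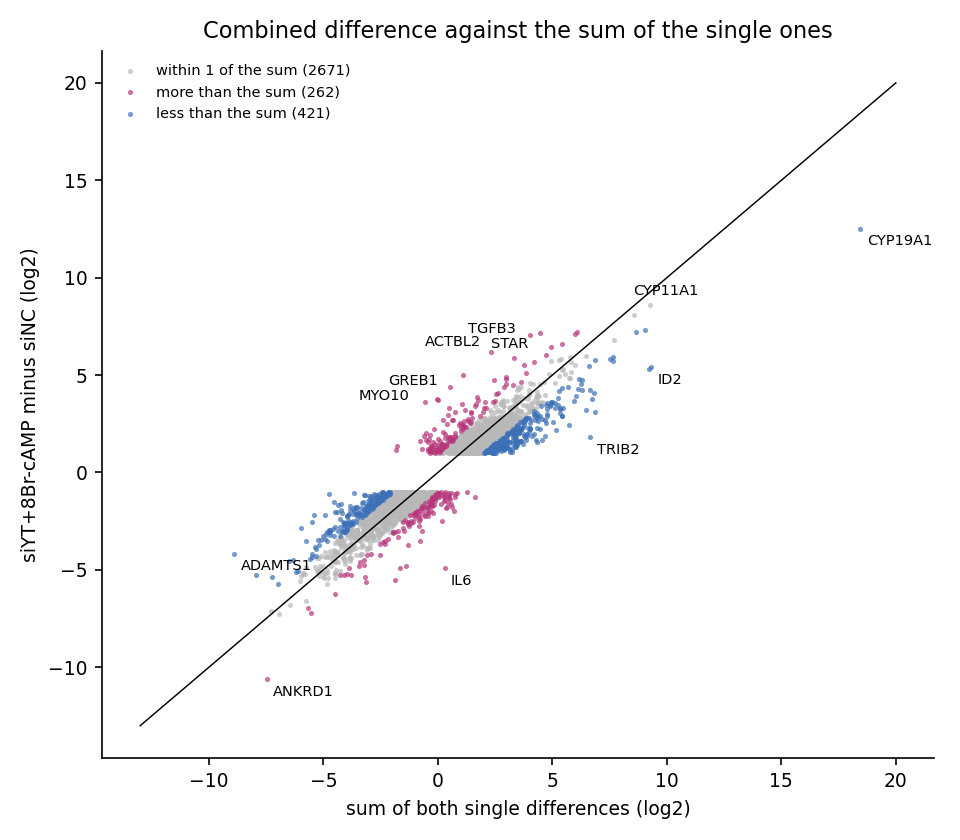
Combined difference (log2, vertical) of the 3354 called genes against the sum of both single differences (log2, horizontal), with the line of equality. CYP19A1 lies below the line by 5.93 log2 units, while GREB1, ACTBL2 and MYO10 lie above it by 3.86, 3.84 and 4.18.

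The steroid synthesis list held the 2 genes with the largest higher differences, CYP19A1 and CYP11A1. Of 22 measured genes of the list, 8 were called higher and 1 lower, against 9.84% and 9.12% of all genes. The list median was 0.95 for the combined difference, 0.46 for siYT and 0.29 for 8Br-cAMP. CYP11A1, which cuts cholesterol to pregnenolone, stood at 4.25, 8.94, 8.82 and 12.84, a combined difference of 8.59. Each treatment gave about the same step, 4.56 for siYT and 4.69 for 8Br-cAMP, and the combined difference lay within 1 of their sum. HSD3B2, which makes progesterone from pregnenolone, stood at 4.17, 8.99, 5.80 and 10.12, a difference of 5.96 of which the 8Br-cAMP difference was 4.82. STAR, which brings cholesterol into mitochondria, stood at 9.84, 14.01, 10.38 and 15.90, a difference of 6.05. STAR is thus a gene that only 8Br-cAMP moved 2-fold by itself, with a siYT difference of 0.54, and its combined difference exceeded the sum by 1.35. HSD11B1, which regenerates cortisol, stood at 5.38, 5.09, 9.27 and 10.00 and was moved 2-fold only by siYT alone.

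CYP19A1 differed from these in that its combined difference was 5.93 log2 units less than the sum. The 8Br-cAMP and the siYT array each read 14.26, and both treatments together read 17.56, within the upper end of the deposited range. The siNC values of CYP19A1, CYP11A1 and HSD3B2 all lay under 6.22. Their folds against siNC, 5875, 386 and 62.1, therefore depend on the background, whereas STAR started from 9.84 with a fold of 66.4. NR5A1, the master regulator of steroidogenic genes, stood at 5.42, 5.80, 6.07 and 6.35, a difference of 0.93 that was not called, and it reached the threshold after centring on the positive controls. The list's member that was lower was CYB5A, a cofactor of steroid lyase activity, at 9.90, 9.12, 9.27 and 8.03. The SF-1 motif AAGGTCA was in 1 of 17 matched promoters of this list (5.88%), against 3.11% of all matched genes of the comparison. A single promoter is too few to compare.

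Among genes of granulosa identity, 5 of 20 were called higher and 2 lower, against 9.84% and 9.12% of all genes, with a median of 0.64. FSHR, the receptor of follicle-stimulating hormone, stood at 3.82, 4.23, 6.31 and 6.63, with a siYT difference of 2.49 and an 8Br-cAMP difference of 0.40. All its values lay under 6.95, a level that 95% of negative control values stay below, and with a filter at that level it was not called. GJA1, connexin 43 of the gap junctions between granulosa cells, stood at 10.86, 13.36, 14.50 and 15.67. INHBA, the activin subunit, stood at 11.36, 13.39, 11.09 and 15.08, so that 8Br-cAMP differed by 2.04 alone and by 4.0 in cells that had siYT. FST, the activin antagonist follistatin, went the other way at 13.79, 11.95, 10.51 and 10.33. The granulosa markers FOXL2, LHCGR, INHA, HSD17B1, ESR2, AMHR2, NR5A2 and IHH, 8 of the 20, lay under 6.22 on all 4 arrays. FSHR, CYP19A1 and NR5A1 also lay under 6.22 in siNC. The label granulosa therefore rests on the origin of the line and not on these markers. LHCGR, the receptor of luteinizing hormone, read between 3.99 and 4.07 on every array.

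**Figure D4:**
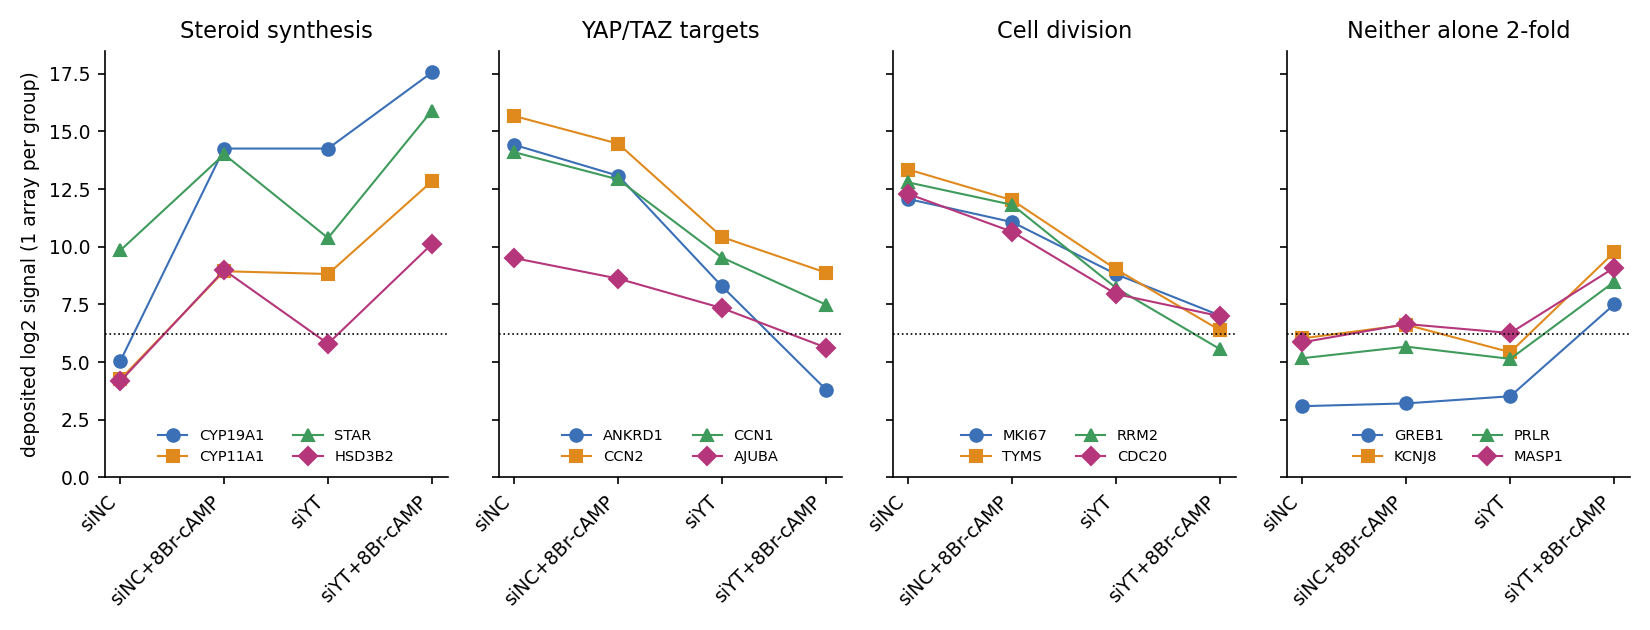
Deposited log2 signal (vertical, 1 array a group) of 16 genes in siNC, siNC+8Br-cAMP, siYT and siYT+8Br-cAMP, with a dotted line at the level filter of 6.22; lines only join the points of a gene. Steroid genes lie at 10.12 or more with both treatments, YAP/TAZ targets and division genes lie lowest there, and the genes of the right panel lie at 6.65 or less on the other 3 arrays and at 7.50 to 9.76 with both.

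The ovulation and luteinization list was mixed, with 9 of 25 called higher and 5 lower, against 9.84% and 9.12% of all genes. Its median was 0.74. HAS2, which makes hyaluronan of the expanding cumulus, stood at 4.29, 6.30, 4.69 and 7.93, a difference of 3.64. VCAN, the matrix proteoglycan versican, stood at 11.17, 11.74, 12.98 and 14.05. PTGS2, the prostaglandin synthase of ovulation, stood at 4.50, 4.27, 5.33 and 7.19, so neither treatment alone moved it 2-fold while both together gave 2.69. In the opposite direction PTX3, a hyaluronan-binding pentraxin, stood at 14.20, 11.07, 10.02 and 7.11, a difference of -7.09. ADAMTS1, a versican-cutting protease, stood at 13.43, 10.03, 7.94 and 9.26, so that the siYT array alone was the lowest and 8Br-cAMP after siYT was 1.32 higher.

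The list of cyclic AMP and CREB responsive genes had members called higher in 12 of 25 cases and lower in 0, against a background of 9.84% and 9.12%. Their median combined difference was 0.92, near the 8Br-cAMP difference alone, 0.91, and above that of siYT alone, 0.50. The values 0.92 and 0.91 are those of members not called, and 7 of the 25 lay under 6.22 on all 4 arrays. Among the called members the siYT difference in cells that had 8Br-cAMP ran from 0.19 for DUSP1 to 3.25 for PPARGC1A. Of the 12, only 8Br-cAMP gave 2-fold in 6, each treatment in 4, only siYT in 1, and in 1 a single treatment went the other way. NR4A3 stood at 2.91, 8.2, 3.45 and 8.61, a difference of 5.70 that 8Br-cAMP gave almost whole. NR4A2, its relative, stood at 3.09, 7.35, 4.90 and 10.28, a difference of 7.19 that exceeded the sum by 1.12. PDE7B stood at 5.55, 10.61, 9.13 and 12.74, with a siYT difference of 3.58 beside the 8Br-cAMP difference of 5.06. PDE4D, another phosphodiesterase, stood at 7.71, 11.68, 8.22 and 12.23, again mostly an 8Br-cAMP difference. PPARGC1A, a coactivator of mitochondrial genes, stood at 8.35, 10.14, 11.42 and 13.39, and its siYT difference of 3.07 was the larger. DUSP1, a phosphatase of MAP kinases, stood at 12.92, 14.81, 11.27 and 15.00, lower with siYT alone and higher with 8Br-cAMP after either siRNA. The full CREB site TGACGTCA was in 4 of 22 matched promoters of the list (18.2%), and in 11 of 185 (5.95%) of the higher genes that only 8Br-cAMP moved 2-fold, against 2.62% of all matched genes of the comparison. The share was also above 2.62% in groups not chosen for cyclic AMP, with 26 of 514 (5.06%) of the lower genes that only siYT moved 2-fold, 14 of 289 (4.84%) of the higher genes that each treatment moved, and 3 of 22 (13.6%) of the mitosis list.

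Outside that list, the genes that only 8Br-cAMP moved 2-fold included HPD, an enzyme of tyrosine breakdown, at 3.93, 9.03, 4.60 and 9.84. CYP2S1, a cytochrome P450, stood at 7.45, 11.45, 6.78 and 13.32. CHMP1B, of the membrane-cutting ESCRT machinery, stood at 10.49, 14.61, 11.31 and 16.23. Among the lower genes of this class, TIMP3, a protease inhibitor of the matrix, stood at 12.04, 10.07, 11.09 and 7.84. CAV1, the coat protein of caveolae, stood at 14.67, 12.44, 13.83 and 11.31. VCAM1, an adhesion molecule, stood at 11.39, 8.89, 11.29 and 8.08. For VCAM1 the combined difference was -3.31, the 8Br-cAMP difference -2.50, the siYT difference -0.09 and the siYT difference in cells that had 8Br-cAMP -0.82.

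Several of the highest genes were moved 2-fold by each treatment alone. TNFRSF19, a receptor of the TNF family, stood at 4.91, 9.82, 8.58 and 12.99, a difference of 8.08. PDK4, the kinase that inhibits pyruvate dehydrogenase, stood at 4.36, 8.14, 6.56 and 11.45, a difference of 7.10. ALPL, the tissue-nonspecific alkaline phosphatase, stood at 6.49, 12.69, 7.99 and 13.31, mostly with 8Br-cAMP. FAIM2, an inhibitor of Fas-induced death, stood at 4.17, 6.24, 11.13 and 11.49, mostly with siYT. SLC1A3, a glutamate transporter, stood at 6.72, 9.51, 9.29 and 12.55, with nearly equal single differences of 2.57 and 2.79 whose sum was 0.47 short of the combined 5.82. DIO2, the enzyme that activates thyroid hormone, stood at 6.54, 12.66, 4.91 and 13.69, a difference of 7.15 although siYT alone had been 1.63 lower.

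YAP/TAZ targets were lower in 11 of 19 cases and higher in 2, against 9.12% and 9.84% of all genes. Their median of -1.21 lay near the siYT median of -1.18, while the 8Br-cAMP median was -0.41. CCN2 stood at 15.67, 14.47, 10.42 and 8.88, a difference of -6.79. CCN1, a related matrix protein, stood at 14.10, 12.92, 9.53 and 7.49, a difference of -6.61. Both lay within 1 of the sum of single differences. ANKRD1 lay 3.12 further down than that sum. Its last value of 3.81 is near the negative control median of that array, 3.66. AJUBA, a LIM protein that binds Hippo kinases, stood at 9.51, 8.62, 7.34 and 5.63. F3, tissue factor, stood at 13.79, 13.09, 9.99 and 10.98, so its array with siYT alone was the lowest of the 4. The targets that were higher were ARHGEF17 and DOCK5. DOCK5, a Rac exchange factor, stood at 13.41, 14.21, 13.79 and 15.39. The TEAD motif GGAATG was in 6 of 15 matched promoters of the list (40.0%), against 11.6% of all matched genes and 10.2% of those called lower.

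Among Hippo components and TEAD factors 9 of 20 were lower and 0 higher, against 9.12% and 9.84% of all genes. The 9 include the 2 siRNA targets. FRMD6, an upstream Hippo protein, stood at 11.50, 9.0, 10.16 and 8.31, with the larger difference from 8Br-cAMP, -2.50 against -1.34. TEAD4, a partner of YAP, stood at 6.73, 5.17, 3.95 and 3.75 and was not called with the filter at 6.95. VGLL3, a TEAD cofactor, stood at 10.82, 10.31, 8.00 and 8.42, mostly with siYT.

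Of the lists examined, mitosis had the largest share of members called in a single direction. Of 25 mitosis genes 24 were called lower and 0 higher, against 9.12% of all genes lower, and the remaining gene, CENPA, was 2.60 lower but under the level filter. The list median was -4.54, with -3.63 for siYT and -0.51 for 8Br-cAMP. Only siYT gave 2-fold in 17 of the 24 and each treatment did in 7. CCNB2 stood at 10.62, 9.67, 6.73 and 5.47. CDC20, an activator of the anaphase-promoting complex, stood at 12.29, 10.65, 7.95 and 6.99. KIF23, a kinesin of cytokinesis, stood at 12.36, 10.99, 8.73 and 7.05. TTK, the spindle checkpoint kinase, stood at 11.63, 11.13, 7.34 and 6.22, with an 8Br-cAMP difference of -0.51 alone and of -1.13 after siYT. MKI67, the proliferation antigen, stood at 12.07, 11.07, 8.81 and 7.02. In whole-culture RNA, fewer cells in division and less RNA of these genes per cell cannot be told apart. CCAAT was in 18 of 22 matched promoters of this list (81.8%) and TTTGAA in 16 (72.7%), against 36.4% and 12.0% of all matched genes.

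DNA replication genes were lower in 22 of 24 cases and higher in 0, against 9.12% and 9.84% of all genes. The list median was -2.99, beside -2.28 for siYT alone and -0.86 for 8Br-cAMP alone. RRM2, the regulated subunit of ribonucleotide reductase, stood at 12.79, 11.82, 8.21 and 5.56, a difference of -7.23 that exceeded the sum by 1.68. TYMS, thymidylate synthase, stood at 13.35, 12.02, 9.02 and 6.38, a difference of -6.97. CDC45, of the replicative helicase, stood at 9.11, 7.67, 5.57 and 3.72. Outside that list, LMNB1, the nuclear lamin B1, stood at 10.44, 8.48, 5.40 and 4.69. H2AC11, a replication-dependent histone H2A gene, stood at 12.63, 10.30, 8.95 and 7.04. Histone H2A genes are near-identical in sequence, so the H2AC11 signal may include others of the family. CDKN1A, the inhibitor p21, stood at 13.30, 13.74, 14.15 and 13.58 and was not called, while CDKN1B, the inhibitor p27, stood at 8.85, 9.83, 10.04 and 10.00, with a difference of 1.14.

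**Figure D5:**
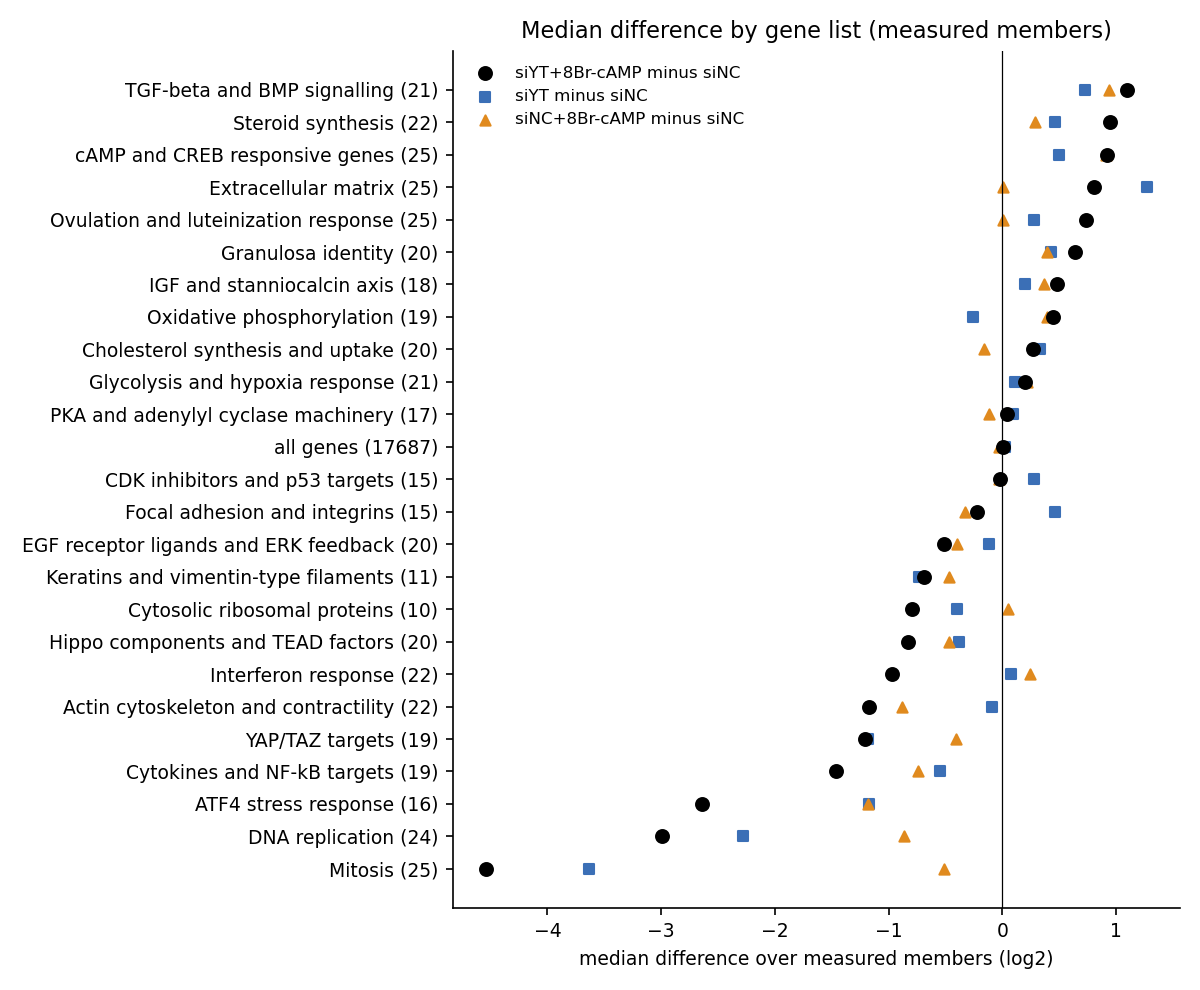
Median difference (log2) over the measured members of 24 gene lists and of all genes, for the combined comparison (circles), siYT alone (squares) and 8Br-cAMP alone (triangles), with the number of measured genes in brackets. Mitosis has the lowest combined median, -4.54, beside a siYT median of -3.63, and the interferon and actin lists have combined medians of -0.97 and -1.17 while their siYT medians are 0.08 and -0.09.

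In the actin cytoskeleton list 8Br-cAMP had the larger part. Of 22 genes 12 were lower and 0 higher, against 9.12% and 9.84% of all genes. The list median was -1.17, beside an 8Br-cAMP median of -0.88 and a siYT median of -0.09. Only 8Br-cAMP gave 2-fold in 6 of the 12 and only siYT in 1. ACTB, beta-actin, stood at 13.09, 11.45, 12.36 and 10.85. ACTG1, gamma-actin, stood at 17.01, 16, 16.51 and 14.49. TAGLN, a calponin-like protein of contractile cells, stood at 9.82, 8.53, 7.77 and 5.62. CNN1, calponin, stood at 9.57, 7.70, 7.08 and 5.48, with both treatments contributing at least 2-fold. ZYX, zyxin of focal adhesions, stood at 11.96, 11.04, 10.62 and 9.33. ACTBL2, an actin-like gene with a sequence close to these actins, went the other way at 4.72, 7.29, 4.49 and 10.90, a difference of 6.18. Whether its probes also read other actin genes was not tested.

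Extracellular matrix genes were higher in 12 of 25 cases and lower in 4, against 9.84% and 9.12% of all genes. Their median was 0.81. The siYT median alone was larger, 1.27, and the 8Br-cAMP median was 0.01. HMCN1, hemicentin of basement membranes, stood at 7.86, 8.70, 13.63 and 13.31, a difference of 5.46. MGP, an inhibitor of calcification, stood at 9.83, 9.67, 16.12 and 14.11, so 8Br-cAMP after siYT differed by -2.0. LUM, the proteoglycan lumican, stood at 4.89, 5.28, 10.23 and 9.73. FN1, fibronectin, stood at 13.87, 14.14, 17.25 and 16.48. For HMCN1, MGP, LUM and FN1 the array with siYT alone was the highest of the 4. NID2, a basement membrane linker, stood at 5.92, 7.80, 8.42 and 9.54 and was highest with both. THBS1, thrombospondin, was lower at 16.35, 15.01, 12.47 and 11.04.

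Genes of TGF-beta and BMP signalling, a list of ligands, receptors, SMADs and targets, had a median of 1.1. They were higher in 12 of 21 cases and lower in 1, against 9.84% and 9.12% of all genes. TGFB3, a ligand, stood at 3.54, 6.43, 4.69 and 10.60, a difference of 7.06 that exceeded the sum by 3.03. BMP6, another ligand, stood at 4.71, 6.41, 7.19 and 10.36, 1.46 above the sum. GDF15, a distant member of the family, stood at 12.44, 15.07, 13.17 and 15.97, mostly with 8Br-cAMP. ID2, an inhibitor of differentiation factors and a BMP target, stood at 8.84, 13.54, 13.46 and 14.25, with single differences of 4.70 and 4.62 but a combined one of only 5.41. SMAD3, a signal transducer, was the member that was lower, at 11.18, 10.77, 11.15 and 9.14, and neither treatment alone gave 2-fold.

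Cytokines and NF-kB targets had a median of -1.46. They were lower in 11 of 19 cases and higher in 2, against 9.12% and 9.84% of all genes. In 6 of these 13 the combined difference exceeded the sum by at least 1. IL6, interleukin 6, stood at 14.67, 17.45, 12.18 and 9.75. With 8Br-cAMP it was thus 2.78 higher in cells with control siRNA but differed by -2.44 in cells with siYT, and the combined difference of -4.92 was 5.21 beyond the sum. CXCL8, interleukin 8, stood at 15.34, 14.48, 13.04 and 9.72. CCL20, a chemokine, stood at 9.03, 9.97, 6.22 and 3.49. CXCL1, a neutrophil chemokine, stood at 11.42, 10.66, 10.87 and 7.68, where neither treatment alone gave 2-fold. IL11, a cytokine of the IL-6 family, stood at 9.84, 15.44, 8.57 and 13.82, higher with 8Br-cAMP in both backgrounds and lower with siYT in both.

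Interferon response genes were lower in 11 of 22 cases and higher in 4, against 9.12% and 9.84% of all genes. Both single medians were nevertheless near 0, at 0.08 for siYT and 0.24 for 8Br-cAMP. The combined median was -0.97. Neither treatment alone gave 2-fold in 7 of the 15 called members, and in 9 the combined difference exceeded the sum by at least 1. IRF1, a transcription factor of the response, stood at 8.13, 6.65, 8.83 and 4.59. IFIT3, an antiviral protein, stood at 11.61, 10.92, 10.56 and 8.28. MX1, an antiviral GTPase, stood at 12.78, 12.29, 11.98 and 10.22. IFIT1 stood at 11.84, 11.90, 11.55 and 9.74. In each of these 4 the array with both treatments was the lowest. Not all members went this way. GBP2, an interferon-induced GTPase, stood at 8.15, 8.42, 12.22 and 11.70. BST2, tetherin, stood at 4.85, 6.24, 8.14 and 8.81.

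The amino acid and stress genes controlled by ATF4 had a median of -2.64. They were lower in 12 of 16 cases and higher in 1, against 9.12% and 9.84% of all genes. The median single differences were -1.17 for siYT and -1.18 for 8Br-cAMP, while the medians of the order-averaged parts were -1.05 and -1.45, and each alone gave 2-fold in 7 of the 13 called genes. ASNS, asparagine synthetase, stood at 14.00, 12.67, 12.16 and 8.63, a difference of -5.38 that exceeded the sum by 2.21. PSAT1, an enzyme of serine synthesis, stood at 16.43, 14.50, 14.38 and 11.21. MTHFD2, of mitochondrial folate metabolism, stood at 14.74, 12.68, 12.98 and 10.18. CHAC1, which degrades glutathione, stood at 11.50, 7.70, 8.05 and 6.14 and fell short of the sum by 1.89. ATF4 itself stood at 13.28, 12.32, 13.15 and 11.08, lower by 2.20 with both treatments and by less than 2-fold with either.

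The genes that neither treatment alone moved 2-fold were led by GREB1, an estrogen-induced gene, at 3.09, 3.21, 3.52 and 7.50, a difference of 4.40. KCNJ8, a potassium channel subunit, stood at 6.03, 6.62, 5.43 and 9.76. PRLR, the prolactin receptor, stood at 5.17, 5.67, 5.14 and 8.48. MASP1, a complement protease, stood at 5.86, 6.65, 6.26 and 9.09. These 4 start near or under the level filter and only the array with both treatments stands clear of the other 3. In the lower direction, SLC2A1, the glucose transporter GLUT1, stood at 11.22, 11.29, 10.47 and 8.21. S100A10, a partner of annexin A2, stood at 16.51, 15.79, 16.42 and 13.77. MARCKS, a substrate of protein kinase C, stood at 12.85, 12.24, 12.13 and 10.18. All of these start well above the filter. Beyond this class, RAP1GAP, which switches off the GTPase Rap1, stood at 4.29, 5.52, 4.12 and 9.27 and exceeded the sum by 3.91.

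A small class moved against a single treatment. MYO10, an unconventional myosin, stood at 9.44, 10.67, 7.65 and 13.05, so it was 1.79 lower with siYT alone and 3.61 higher with both. CPM, a carboxypeptidase of the cell surface, stood at 7.04, 8.93, 5.11 and 10.79 and did likewise. Among the 10 lower genes of the class, NEK7, SVIL, JKAMP and MYLK differed by only -1.05 to -1.24 and were not called after centring on the positive controls.

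In 28 further genes the single treatments were each at least 2-fold, in opposite directions, and the combined difference was under 1 in size. TNC, the matrix protein tenascin C, stood at 10.27, 8.69, 13.55 and 10.50, higher with siYT and lower with 8Br-cAMP, and only 0.24 apart with both. TGFBR1, a TGF-beta receptor, stood at 10.99, 12.96, 9.40 and 11.10, a combined difference of 0.11. BEX1 stood at 9.27, 11.20, 6.79 and 8.43. Of the 28, 12 were higher with siYT and lower with 8Br-cAMP, and 16 were the reverse.

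Markers of epithelial, immune and endothelial cells were mostly under the level filter. Of 9 epithelial markers 1, CLDN7, reached it on any array, and the log2 of their summed linear signal ran from 7.90 to 8.34. Of 8 immune markers only CD68 did, at 10.77, 10.33, 12.69 and 13.15. CD68 is also a lysosomal protein of many cells. Of 8 endothelial markers 2 did, and KDR, at 6.31, 5.70, 6.09 and 4.66, was lower by 1.65, near the filter. Among 9 theca and stromal markers 7 did, and LUM, DCN and PDGFRB were higher while ACTA2 and COL1A1 were lower, COL1A1 not after centring on the positive controls. DCN, decorin, stood at 5.84, 4.56, 9.23 and 8.43. PDGFRB, a growth factor receptor, stood at 8.17, 9.83, 10.04 and 10.30. The log2 summed signal of these 9 was 14.33, 14.09, 14.41 and 13.60. Of 5 Sertoli-type markers 2 passed, SOX9 at 7.09, 6.72, 6.15 and 5.71 and CLDN11, a tight junction protein, at 15.74, 14.42, 12.65 and 11.49, both lower, SOX9 not with log2 of the linear value plus 32. The log2 summed signal of the 5 was 15.75, 14.43, 12.67 and 11.55, almost wholly that of CLDN11. The part of these markers in the other results was not tested.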

How the data were processed

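RNA of 4 KGN cultures was measured, 1 array a group. The values the authors deposited are log2 signals from RMA, run in the Affymetrix Expression Console per the submitters' processing notes. RMA subtracts background, forces all arrays to the same distribution and condenses probes to probe sets, so a shift of most genes in one direction would be removed. The sources used here do not give software versions or a build for the probes.

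Probe sets were named through the platform annotation, and only those with exactly 1 gene were used. Left out were 3739 unnamed transcript clusters and 2903 controls (612 negative, 2197 positive, 94 others). Differences of the deposited log2 values were computed in Python 3.11.15. A gene was called at a size of at least 1 with the higher array at 6.22 or more, with no test, since each group has 1 array and nothing measures the spread between cultures. The order-averaged parts take each treatment's difference first and second and average both. An additive limma fit (limma 3.58.1, R 4.3.3) was an alternative only, and the counting was tested on simulated data. Alternatives covered the filter, scaling, offset, probe set choice and the rules for the parts.

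The naming rule covered both siRNA targets, the 20 highest and 20 lowest called genes, the 6 largest of each class and direction, the 8 furthest above and below the sum, the 6 largest cancelling genes, up to 5 of each list and 17 genes chosen by hand, and not every gene it covered is named. CYB5A, PTGS2, DUSP1, DOCK5, CENPA, FN1, SMAD3, MX1, IFIT1, ATF4, ESR2, AMHR2, IHH, CLDN7 and ARHGEF17 were named after their values were seen. The 29 lists and the other members were chosen with earlier results of these data known.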

Additional observations from a re-analysis of the deposited data

Results flagged for a closer look

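In 8 of the 206 named genes a treatment gave at least 2-fold in one direction in one background and at least 2-fold in the opposite direction in the other. The naming rule takes genes with opposed single treatments or far from the sum, which favours such cases. The count is therefore no measure of how common they are among all genes. With 1 array a group the difference between the backgrounds was not tested. For the siRNA, the difference without 8Br-cAMP was -1.93 for CPM, -1.63 for DIO2, -1.79 for MYO10 and -1.32 for SLC27A2, a fatty acid transporter. With 8Br-cAMP these genes were higher by 1.86, 1.04, 2.38 and 1.15. TRIB2, a pseudokinase, was the reverse for the siRNA, with 3.66 without and -1.18 with 8Br-cAMP, and likewise for 8Br-cAMP, with 3.0 after siNC and -1.84 after siYT. For 8Br-cAMP, ADAMTS1 differed by -3.40 after siNC and 1.32 after siYT, SDC1, the proteoglycan syndecan 1, by -1.63 and 2.01, and IL6 by 2.78 and -2.44.

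Transcript clusters with no gene name lie outside the comparison. Of the 3739, 424 (11.3%) were called by the same rule with both treatments, 202 higher and 222 lower, beside 19.0% of the named genes. Of the 80 negative control probe sets that passed the level filter, 64 were called.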

How the results depend on the processing

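No paired analysis was possible because each group has 1 array and the labels give no replicate numbers; for the same reason no replicate could be left out. Centring on the positive controls gave 2725 higher and 1043 lower genes. The additive limma fit called 826 higher and 824 lower at an adjusted p of 0.05, with 1 residual degree of freedom, and 1555 of the 3354 called genes were among them. The residual of that fit is each gene's departure from the sum of both treatments. It does not measure the spread between cultures, so the overlap is no replicate check. With log2 of the linear value plus 32, 16 genes cancelled. With order-averaged parts, 400 genes had each part sufficient and 13 had opposed parts. With parts called at 1.5-fold, 1570 genes were moved by each treatment, 278 by neither and 73 had an opposed one. The other counts stayed within 1.5 times, with 2086 higher and 1943 lower without the level filter, 1606 and 1471 with it at 6.95, 1623 and 1738 after cyclic loess, and 1506 and 1380 with the offset of 32. No named gene changed sign among those called. The 16 named genes whose call ended with positive control centring include KRT8, LMNA, RPL10A and COL1A1, and 10, among them NR5A1 and PRKACA, became called. At 6.95 as filter FSHR, C7, SVIL, TEAD4 and KDR were not called, MSMO1 and COX6C were not after loess, and SVIL, KDR and SOX9 were not with the offset of 32. Array number limits the precision of every value.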

Other observations

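Over all genes 9.84% were called higher and 9.12% lower, and the counts of the lists given here stand beside those shares. Only 9458 of the 17687 genes passed the level filter, and all 1741 higher and 1613 lower calls are among them. Of the oxidative phosphorylation genes 19 of 19 passed, and of the focal adhesion and integrin genes 14 of 15. So did 24 of 25 mitosis, 16 of 16 ATF4 and 21 of 22 actin genes, among other lists given above. For such lists the shares over all genes are too low a measure. Of 19 oxidative phosphorylation genes 3 were called higher and 0 lower, with a median of 0.45 beside -0.26 for siYT and 0.39 for 8Br-cAMP. UQCRC2, of complex III, stood at 13.20, 13.94, 13.37 and 14.50. COX5B, of complex IV, stood at 10.35, 11.24, 10.84 and 11.61. COX6C stood at 11.80, 12.32, 11.77 and 12.90. COX6C was not called after cyclic loess. Of 10 measured cytosolic ribosomal proteins 4 were called lower and 0 higher, with a median of -0.79. These were RPL10A, RPS18, RPS6 and RPL7, with differences from -1.35 to -1.08, and none of them was called after centring on the positive controls. In glycolysis and hypoxia 4 of 21 were lower, among them ADM, the hypoxia-induced peptide adrenomedullin, at 9.44, 9.49, 7.99 and 4.63. Cholesterol synthesis and uptake held 2 higher of 20, near the share over all genes. TM7SF2, a sterol reductase, stood at 6.84, 6.82, 8.37 and 8.46. MSMO1, a sterol oxidase, stood at 14.74, 14.18, 15.34 and 15.74. MSMO1 lay at the threshold and was not called after cyclic loess.

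The IGF and stanniocalcin list held 7 higher and 2 lower of 18. IGFBP4, an IGF binding protein, stood at 9.16, 12.99, 8.69 and 12.94, a difference that 8Br-cAMP gave whole, and STC1, stanniocalcin 1, at 13.28, 15.96, 14.38 and 15.71. STC2, its relative and a stress gene, was lower at 14.30, 13.44, 11.45 and 10.52. IGFBP3 stood at 15.16, 15.78, 14.12 and 12.91. Of 20 EGF receptor ligands and ERK feedback genes 9 were lower and 1 higher. FOSL1, an AP-1 subunit, stood at 14.09, 11.05, 10.95 and 8.98. DUSP5, an ERK phosphatase, stood at 11.82, 9.14, 9.26 and 8.34. ERBB3, a receptor, stood at 8.44, 6.27, 4.86 and 4.91. SPRY1, a feedback inhibitor, was higher at 9.10, 12.46, 12.62 and 12.19, so the array with both treatments was no higher than either single one. Among keratins, lamins and vimentin-type filaments 4 of 11 were lower, KRT18 and LMNB1, and by close to 2-fold KRT8 and LMNA, which were not called after centring on the positive controls. KRT18, a keratin, stood at 16.40, 15.92, 12.38 and 11.22, mostly with siYT. Of 15 focal adhesion and integrin genes 2 were lower, PXN, paxillin, at 12.77, 11.03, 11.55 and 10.16, and PARVA, which also lost its call after that centring. HMOX1, which breaks down heme, stood at 12.13, 10.95, 6.37 and 4.86. HLA-DRA, a class II antigen chain, stood at 3.16, 6.56, 4.70 and 9.62. CREB3L3, a membrane-bound transcription factor, stood at 3.83, 6.26, 6.82 and 10.42, both highest with both treatments. Of 17 genes of the protein kinase A and adenylyl cyclase machinery 1 was lower and 0 higher, AKAP12, a kinase anchor, at 8.70, 8.03, 7.29 and 7.45, and it was not called after centring on the positive controls.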
